A study of Mus musculus with 16 samples.

Results

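Cell cycle and mitosis genes were followed in cultures of mouse embryonic stem (ES) cells on stroma and in the stroma alone. The 43 genes were taken by symbol from the deposited array table, which held 30854 target names, and they fell into 20 genes of mitosis, 15 of replication and the G1/S step, 3 D cyclins with their kinase CDK4, and 4 inhibitors of cyclin-dependent kinases. They were measured by 90 of the 45281 probes. Of the 43 genes, 39 passed the filter on dim probes, which asked for a detection p-value below 0.05 on every array of at least 1 group, as did 14829 genes in all. The other 4, the cyclins CCNB2 and CCNA2 and the motors CENPE and KIF20A, were each read by a single probe, which was detected on 1 array for CCNA2 and on 0 arrays for the rest.

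ES cells, in the methods a line with EGFP knocked into the tau locus, were grown for 7 days in serum-free medium on monolayers of PA6, a mouse bone marrow stromal line, and PA6 mono-cultures were kept in parallel. Either culture received no growth factor (-GFs), recombinant FGF2 at 20 ng/ml or recombinant BMP4 at 10 ng/ml for 3 days. The methods state a lower dose of BMP4 than the labels, place the factors at the onset of culture, and have them withdrawn before the RNA was taken. The 16 bead arrays comprised 2 co-cultures -GFs, 3 with FGF2 and 2 with BMP4, and 3 PA6 mono-cultures of each kind. The labels describe a well of each condition for every biological replicate, and the co-cultures were mixtures of ES cell progeny and PA6. In such bulk samples fewer cells of a type and less RNA per cell cannot be told apart.

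The cell cycle is driven by cyclins bound to cyclin-dependent kinases. D cyclins with CDK4 respond to growth factors in G1, cyclin E with CDK2 opens S phase, in which the MCM helicase and PCNA replicate the DNA, and cyclin B drives mitosis, where Aurora and Polo kinases, kinesins and the spindle checkpoint separate the chromosomes. Inhibitors of the CDKN families hold these kinases back. ES cells are known for a short G1 phase, and genes of mitosis are known to be switched on together through CHR elements and CCAAT boxes in their promoters, and genes of replication through E2F sites.

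Promoters of 3 members that hold such elements are shown, because genes of mitosis and of replication were higher together in co-cultures than in PA6, as described after them. The windows, from RefSeq on GRCm38.p6, span 250 bases before to 50 after the annotated start and are printed 5′ to 3′ on the strand of the gene. PLK1 lies at chr7:122159185-122159484 on the plus strand, MCM5 at chr8:75109259-75109558 on the plus strand, and CDC6 at chr11:98907901-98908200 on the plus strand. Capitals mark letters of the CHR element, spelled TTTGAA and in another form TTCGAA, of the CCAAT box, which is CCAAT itself, and of the E2F sites, spelled TTCCCGC and in other forms TTTCGCG and, with a different core, TTGGCGC. All were searched on both strands, and a pair of E2F matches in MCM5 overlap.
PLK1: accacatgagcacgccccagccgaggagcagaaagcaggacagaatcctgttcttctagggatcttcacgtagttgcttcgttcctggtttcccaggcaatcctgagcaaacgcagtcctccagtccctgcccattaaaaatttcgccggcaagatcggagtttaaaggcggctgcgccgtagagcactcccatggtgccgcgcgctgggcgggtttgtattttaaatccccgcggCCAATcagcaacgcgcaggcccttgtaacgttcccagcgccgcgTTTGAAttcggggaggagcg
MCM5: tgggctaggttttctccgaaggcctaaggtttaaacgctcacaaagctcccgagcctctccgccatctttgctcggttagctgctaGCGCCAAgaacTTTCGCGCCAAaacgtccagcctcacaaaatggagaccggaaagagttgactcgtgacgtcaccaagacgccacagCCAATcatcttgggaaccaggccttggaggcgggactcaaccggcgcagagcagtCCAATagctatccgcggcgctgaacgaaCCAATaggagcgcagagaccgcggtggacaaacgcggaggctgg
CDC6: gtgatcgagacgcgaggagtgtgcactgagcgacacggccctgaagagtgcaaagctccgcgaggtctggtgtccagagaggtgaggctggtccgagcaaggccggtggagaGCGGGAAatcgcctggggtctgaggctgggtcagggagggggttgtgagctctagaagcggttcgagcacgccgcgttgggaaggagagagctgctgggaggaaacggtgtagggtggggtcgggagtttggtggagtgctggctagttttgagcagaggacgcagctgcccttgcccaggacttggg
The PLK1 window held a CCAAT box and, 31 bases into the transcript, a CHR element. MCM5 held 3 CCAAT boxes and 3 E2F matches, and CDC6 a single E2F match on the opposite strand. The windows of CCNB2, with 5 matches, and of E2F1, with 0, were also marked and are not printed. A window was given for 36 of the 43 members. CHR letters were in 12 of 16 windows of mitosis genes (75%) and in 2 of 14 of replication genes (14.3%), against 21.7% of all 27025 genes. E2F letters were in 2 of 16 (12.5%) and 8 of 14 (57.1%), against 8.58% of all genes, and CCAAT in 13 of 16 (81.2%) and 9 of 14 (64.3%), against 41.1%. These matches describe letters in the windows and were not tested for binding.

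Within co-cultures and within PA6, neither growth factor changed any of the 39 members past both limits, an adjusted p below 0.1 and a change of over 1 on the log2 scale. With FGF2 in co-cultures 0 of 39 members were called, against 7.42% of all genes, and with BMP4 0 of 39 against 3.76%. In PA6 0 of 39 were called with FGF2, against 0.027% of all genes, and 0 of 39 with BMP4, against 0%. BMP4 against FGF2 gave 0 of 39 members in co-cultures, against 1.44%, and 0 of 39 in PA6, against 0.31%. These tests were limma's moderated tests with Benjamini-Hochberg adjustment over all 14829 genes. At an unadjusted p below 0.05, 4 members passed with FGF2 and 2 with BMP4 in co-cultures, against 22.7% and 14.9% of all genes, and 6 and 3 in PA6, against 10.4% and 8.97%. For BMP4 against FGF2 these were 3 members in co-cultures, against 14.2%, and 7 in PA6, against 9.27%. The FGF2 and BMP4 comparisons of a culture share their -GFs arrays.

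The changes were of both signs. In co-cultures the median change over the 39 members was 0.09 on the log2 scale with FGF2 (range -0.76 to 0.52), with 22 members higher, while the median over all genes was -0.06, and under median scaling of the arrays these medians were -0.17 and -0.21. With BMP4 the members' median was 0.02 (range -1.02 to 0.81), with 20 higher. Both signs turned without co-culture -GFs replicate 2, to -0.15 and -0.13, the FGF2 median also without FGF2 replicate 1 (-0.04) and the BMP4 median without BMP4 replicate 1 (-0.05). In PA6 the medians were -0.01 with FGF2 (range -0.87 to 0.98) and -0.03 with BMP4 (range -0.67 to 0.93). The 95% interval lay within 2-fold either way for 32 of the 39 members with FGF2 in co-cultures and for 35 with BMP4, against 58% and 57.9% of all genes. In PA6 it did so for 28 members with FGF2 and 31 with BMP4, against 80.5% and 81.8%. Between BMP4 and FGF2 it did so for 30 members in co-cultures and 27 in PA6, against 64% and 81.1%. For the other members a 2-fold change was not excluded by the interval.

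**Figure D1:**
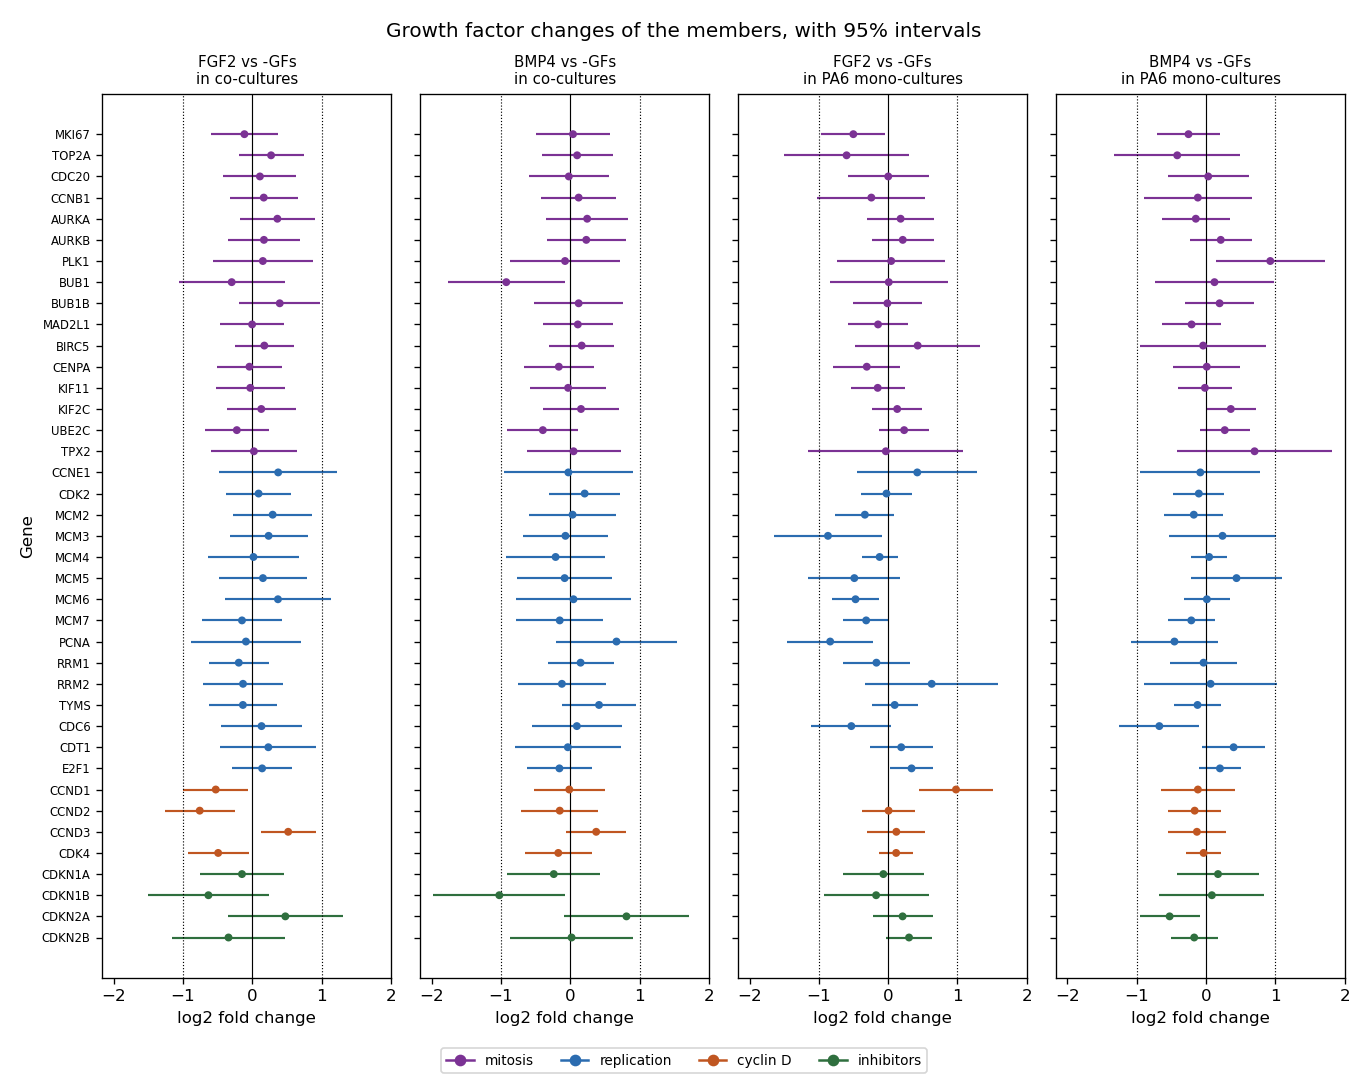
log2 fold change of each of the 39 members (y axis) against cultures without growth factor (x axis), with 1 panel for each factor and culture; points are estimates, lines 95% intervals, colours the roles, and dotted lines mark a change of 1 in either direction. Estimates lie between -1.02 and 0.98, and in co-cultures with FGF2 CCND2 lies lowest and CCND3 highest.

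**Figure D2:**
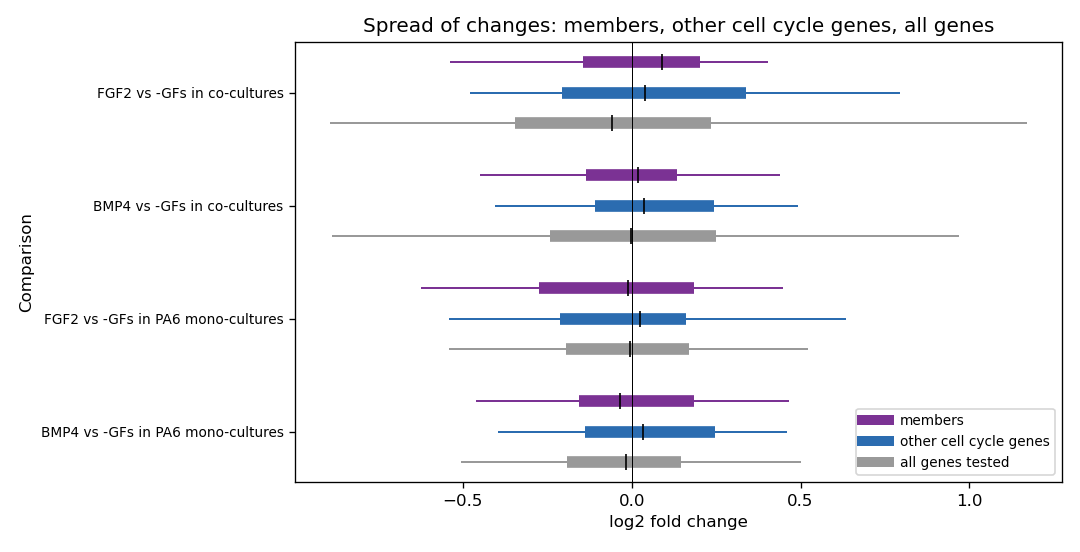
Spread of log2 fold changes (x axis) in the 4 comparisons with -GFs cultures (y axis) for the members, 96 other cell cycle genes and all 14829 genes; ticks mark medians, thick bars the range between the quartiles and thin lines the 5th to 95th percentiles. In co-cultures the lines of the members are shorter than those of all genes.

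No gene of mitosis passed the test with either factor. Of the 16 measured, 10 were higher with FGF2 in co-cultures and 10 with BMP4, with medians of 0.12 and 0.07 that ran from -0.14 to 0.23 and from -0.13 to 0.25 over 16 alternatives each. MKI67, which encodes the proliferation antigen Ki-67, read 11.98 and 11.54 without factor, 11.84, 11.54 and 11.56 with FGF2 and 11.87 and 11.73 with BMP4 on the log2 intensity scale in co-cultures. The FGF2 change was -0.11 ± 0.20 (SE) and the BMP4 change 0.04 ± 0.22, and both groups overlapped the -GFs arrays. TOP2A, the topoisomerase that untangles chromosomes, read 13.43 and 13.29 without factor, 13.76, 13.68 and 13.45 with FGF2 and 13.66 and 13.26 with BMP4. Its FGF2 arrays lay just above the -GFs arrays, by 0.27 ± 0.20 (adjusted p = 0.480).
CCNB1, the cyclin of mitotic entry, read 13.45 and 13.33 without factor, 13.90, 13.38 and 13.39 with FGF2 and 13.54 and 13.49 with BMP4. The FGF2 arrays overlapped the -GFs arrays, and both BMP4 arrays lay just above them. PLK1, the Polo kinase, read 13.33 and 12.64 without factor, 13.44, 13.19 and 12.79 with FGF2 and 13.19 and 12.64 with BMP4, with changes of 0.15 ± 0.31 and -0.07 ± 0.34. Replicate 1 of the FGF2 co-cultures was the highest of the 7 for both genes.

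BUB1, a kinase of the spindle checkpoint, was dim, at 6.73 and 6.57 without factor, 6.77, 6.61 and 5.67 with FGF2 and 5.69 and 5.76 with BMP4. It was detected on both -GFs arrays, on 2 of 3 FGF2 arrays and on 0 of 2 BMP4 arrays, at least 1.25-fold lower with BMP4 (adjusted p = 0.285). This bound sets the bright group's mean against the dim group's mean, in which each array takes the higher of its detection level and its own signal.

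Nor did any gene of replication. Of the 15, 10 were higher with FGF2 in co-cultures and 7 with BMP4, with medians of 0.13 and -0.03 that ran from -0.15 to 0.31 and from -0.24 to 0.30. MCM2, a subunit of the replicative helicase, read 12.17 and 11.89 without factor, 12.65, 12.38 and 11.94 with FGF2 and 12.15 and 11.98 with BMP4. The groups overlapped for both factors. CCNE1, the E cyclin, read 10.75 and 10.10 without factor, 11.25, 11.00 and 10.13 with FGF2 and 10.51 and 10.28 with BMP4, and its kinase CDK2 12.92 and 12.52 without factor, 12.92, 12.90 and 12.62 with FGF2 and 12.90 and 12.96 with BMP4. Neither separated the groups. RRM2, a subunit of ribonucleotide reductase, read 11.94 and 11.54 without factor, 12.00, 11.45 and 11.37 with FGF2 and 11.60 and 11.64 with BMP4, and E2F1, a transcription factor of the G1/S step, 11.68 and 11.77 without factor, 11.65, 12.01 and 11.94 with FGF2 and 11.62 and 11.52 with BMP4. Both overlapped between -GFs and FGF2 cultures, and the BMP4 arrays of E2F1 lay below the -GFs arrays. Dimmer retained probes of RRM2 gave -0.22 and -0.86 with FGF2. The FGF2 arrays of the last lay below its -GFs arrays (adjusted p = 0.0707 in a fit to single probes), under the fold limit.
PCNA, the sliding clamp of the replication fork, read 10.28 and 9.66 without factor, 10.44, 9.48 and 9.71 with FGF2 and 10.45 and 10.83 with BMP4. Both BMP4 arrays lay above all other co-culture arrays, by 0.67 ± 0.37 over -GFs (adjusted p = 0.476) and 0.76 ± 0.34 over FGF2 (adjusted p = 0.372). With the run of adjoining columns in the deposited table as a block, PCNA was called in both comparisons, against 4.03% and 3.8% of all genes.

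In PA6 many members were dim. MKI67 read 5.64, 6.41 and 6.26 without factor, 5.63, 5.57 and 5.61 with FGF2 and 5.63, 6.03 and 5.88 with BMP4 and was not detected on any of the 9 arrays. PCNA read 8.17, 7.75 and 8.01 without factor, 7.44, 7.35 and 6.63 with FGF2 and 7.16, 7.41 and 8.0 with BMP4, with the FGF2 arrays below the -GFs arrays by 0.84 on the log2 scale (-0.84 ± 0.27, adjusted p = 0.357). MCM3, another helicase subunit, was detected on 3 of 3 arrays without factor and on 0 of 3 with FGF2, at least 1.48-fold lower (adjusted p = 0.440). PLK1 read 6.79, 7.60 and 7.90 without factor, 7.26, 7.28 and 7.88 with FGF2 and 7.90, 8.92 and 8.25 with BMP4, a BMP4 change of 0.93 ± 0.35 (adjusted p = 0.531) with overlapping groups. None of these passed the adjusted limit.

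With FGF2 in co-cultures CCND2 had the lowest and CCND3 the highest estimate of the members, and CCND1 and CDK4 lay near the lower end, after CDKN1B. CCND1, cyclin D1, read 14.56 and 14.60 without factor, 14.25, 13.84 and 14.06 with FGF2 and 14.41 and 14.73 with BMP4 in co-cultures, and all 3 FGF2 arrays lay below both -GFs arrays, a change of -0.53 ± 0.20 (adjusted p = 0.172). In PA6 it read 12.74, 13.38 and 13.42 without factor, 13.98, 14.20 and 14.30 with FGF2 and 12.66, 13.26 and 13.27 with BMP4, and there the FGF2 arrays lay above all others, by 0.98 ± 0.23 (adjusted p = 0.221). The effect of FGF2 on CCND1 differed between co-cultures and PA6 by -1.51 ± 0.32 (95% interval -2.21 to -0.81, adjusted p = 0.0141), tested as an interaction over the 16 arrays. It was the only member of 39 called for that difference, against 7.92% of all genes called in either direction and 2.99% called lower. It stayed called in all 25 alternative fits, with values from -1.63 to -1.29 and adjusted p from 0.00400 to 0.0656. The other 2 probes of CCND1 had the same signs, with -0.58 and -0.38 in co-cultures and 0.97 and 0.82 in PA6.

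CCND1 with BMP4 stayed with the -GFs arrays in both cultures, at -0.01 ± 0.22 in co-cultures and -0.12 ± 0.23 in PA6. In PA6 the BMP4 arrays were thus below the FGF2 arrays by 1.10 (-1.10 ± 0.23, adjusted p = 0.158). With the replicate number as a block this difference was called, as 1 of 39 members against 0.486% of all genes, while the adjusted p of the FGF2 change in PA6 became 0.0878 with the change still under the fold limit.

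CCND2, cyclin D2, read 13.99 and 13.72 without factor, 13.23, 12.86 and 13.19 with FGF2 and 13.50 and 13.90 with BMP4 in co-cultures. FGF2 arrays lay below all other co-cultures, by 0.76 on the log2 scale (-0.76 ± 0.21, adjusted p = 0.0894), past the limit on p and short of the limit on size. Over 16 alternatives this change ran from -1.01 to -0.62. Its adjusted p was 0.135 under median scaling, 0.101 with the column run as a block and 0.0468 without background correction. Its 3 retained probes gave -0.76, -0.65 and -1.25. In PA6 it read 13.47, 13.49 and 14.06 without factor, 13.72, 13.59 and 13.72 with FGF2 and 13.54, 13.42 and 13.57 with BMP4, a change of 0.01 with overlapping groups. CDK4 read 14.20 and 14.09 without factor, 13.88, 13.46 and 13.61 with FGF2 and 13.93 and 14.02 with BMP4 in co-cultures, where the FGF2 arrays lay below the -GFs arrays by 0.49 (-0.49 ± 0.19, adjusted p = 0.176). In PA6 CDK4 read 13.00, 13.06 and 13.09 without factor, 13.18, 13.11 and 13.20 with FGF2 and 12.93, 13.01 and 13.10 with BMP4, and the test of the difference between cultures gave -0.61 ± 0.19 (adjusted p = 0.0742), under the fold limit. A dimmer retained probe of CDK4 gave -0.75 with FGF2 in co-cultures (adjusted p = 0.0549 in a fit to single probes). In PA6 it gave 0.31, a difference of -1.06 for which no test is given.
CCND3, cyclin D3, went the other way in co-cultures, with 12.77 and 12.79 without factor, 13.17, 13.25 and 13.46 with FGF2 and 13.19 and 13.12 with BMP4. FGF2 arrays lay above both -GFs arrays, by 0.52 ± 0.17 (adjusted p = 0.127), and so did both BMP4 arrays. In PA6 CCND3 read 12.79, 12.68 and 13.15 without factor, 13.06, 12.79 and 13.13 with FGF2 and 13.04, 12.53 and 12.66 with BMP4, with overlapping groups. A dimmer retained probe of CCND3 gave 0.68 with FGF2 in co-cultures and 0.16 with BMP4, whose arrays overlapped the -GFs arrays. In PA6 its FGF2 arrays lay above the -GFs arrays, by 0.68 (adjusted p = 0.528 in a fit to single probes).

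**Figure D3:**
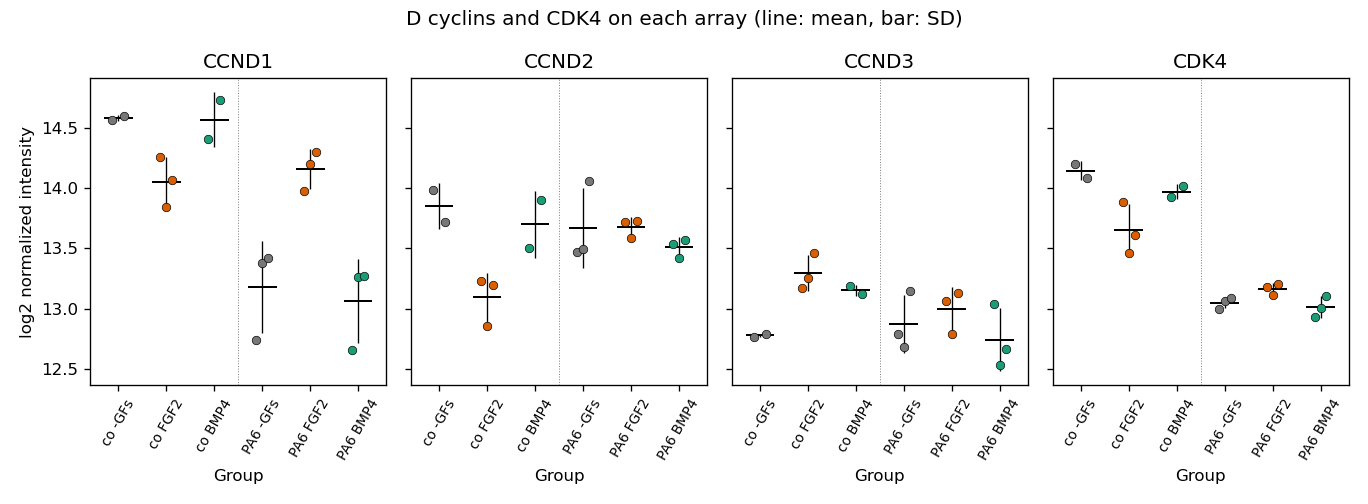
log2 normalized intensity (y axis) of CCND1, CCND2, CCND3 and CDK4 on each array by group (x axis); points are arrays, horizontal lines group means and vertical bars SD, with n = 2 or 3. CCND1 with FGF2 sits below the -GFs arrays in co-cultures and above them in PA6.

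In the same co-cultures with FGF2, 8 of 9 markers of pluripotent cells were called higher, against 5.06% of all genes, with a summed intensity of 60290 to 75198 against 13535 to 14126 without factor, and 3 of 8 neural markers were called lower, against 2.36%, with sums of 31935 to 35115 against 46523 to 66907. No marker of either list was at 0 or undetected across a co-culture group. Stromal markers had sums of 59442 to 67598 with FGF2 and 61448 to 65701 without, and 0 of 10 were called. Of 4 endothelial markers 2 were called higher (PECAM1 and TEK), with sums of 2011.2 to 3552 against 404 to 523, and TEK and EMCN were undetected without factor. The part of these cell types in the CCND1, CCND2 and CDK4 values was not tested.

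The inhibitors did not pass the test with either factor. CDKN1A, which encodes p21, read 12.12 and 12.56 without factor, 11.85, 12.13 and 12.60 with FGF2 and 12.13 and 12.08 with BMP4, and CDKN2B, which encodes p15, 12.16 and 12.74 without factor, 11.97, 11.74 and 12.61 with FGF2 and 12.12 and 12.82 with BMP4. Groups overlapped for both. CDKN1B, which encodes p27, was dim at 6.82 and 7.68 without factor, 7.18, 6.45 and 6.22 with FGF2 and 6.45 and 6.00 with BMP4 and was detected on 2 of 2, 1 of 3 and 1 of 2 arrays of these groups. Its change with BMP4 was -1.02 ± 0.40 (adjusted p = 0.296). The BMP4 array at 6.00 was under its detection level of 6.28, so the size of this change is not measured.
CDKN2A, the locus of p16 and p19ARF, read 8.58 and 9.01 without factor, 8.69, 9.23 and 9.89 with FGF2 and 9.45 and 9.76 with BMP4. Its change was 0.48 ± 0.35 with FGF2 and 0.81 ± 0.39 with BMP4 (adjusted p = 0.483 and 0.397). Its 3 probes disagreed with FGF2, at 0.48, -0.32 and 1.01, and the last passed both limits in a fit to single probes (adjusted p = 0.0991), as did 6.69% of the 20880 probes. The BMP4 effect on CDKN2A differed between cultures by 1.34 ± 0.42 (adjusted p = 0.127) by the brightest probe, and by -0.08 and 0.51 by the other 2. For that difference 0 of 39 members were called, against 4.25% of all genes, and 3 passed an unadjusted p below 0.05, against 15.5%. With the replicate number as a block CDKN2A alone was called, against 5.12% of all genes.
In PA6 CDKN1A read 11.69, 12.08 and 12.52 without factor, 11.87, 11.85 and 12.37 with FGF2 and 12.54, 11.89 and 12.38 with BMP4, and CDKN1B 9.15, 9.16 and 8.26 without factor, 8.95, 9.04 and 8.06 with FGF2 and 9.01, 9.24 and 8.58 with BMP4. CDKN2A read 11.08, 10.50 and 10.98 without factor, 11.11, 10.79 and 11.29 with FGF2 and 10.20, 10.42 and 10.36 with BMP4, and CDKN2B 12.89, 12.93 and 13.06 without factor, 13.33, 13.22 and 13.24 with FGF2 and 12.49, 12.91 and 12.97 with BMP4. The BMP4 arrays were the lowest of the 3 groups for CDKN2A, by 0.52 below -GFs (-0.52 ± 0.19, adjusted p = 0.531), while its other 2 probes gave 0.08 and 0.25.

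The large difference was between the cultures. Without factor, 31 of 39 members were called higher in co-cultures than in PA6 and 2 were called lower, against 22.4% and 21.8% of all genes, and the median difference was 3.04 on the log2 scale, against 0.03 over all genes. With FGF2 29 were called higher and 3 called lower, against 23.5% and 23% of all genes, and with BMP4 30 and 1, against 22.1% and 20.4%, with medians of 3.50 and 3.12. Of the 39, 12 passed the filter on dim probes only through the co-cultures, where they are high (MKI67, TOP2A, CCNB1, AURKA, AURKB, BUB1, BIRC5, KIF11, KIF2C, UBE2C, TPX2 and CDC6), and 8 of these were undetected on every PA6 array without factor. The counts and medians are therefore a description, and no p between cultures is given for these 12. Markers of stroma were lower in co-cultures (8 of 10 called without factor, with sums of 61448 to 65701 against 200890 to 226763, POSTN undetected), and neural markers were at 403 to 541 in PA6, where 7 of 8 were undetected on every array. Correlations of whole arrays were 0.722 to 0.796 between cultures and 0.973 to 0.986 within groups. Culture and the presence of ES cells cannot be told apart.

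Of the 16 genes of mitosis 15 were called higher without factor, against 22.4% of all genes, and 11 of the 16 were among those that passed only through the co-cultures. CENPA, the histone of centromeres, CDC20, an activator of the anaphase-promoting complex, and PLK1 were detected on all PA6 arrays without factor. So were BUB1B and MAD2L1, which were higher in co-cultures by 2.73 and 2.78. CENPA was higher by 5.05 ± 0.22 (adjusted p = 5.99e-10), and CDC20 by 5.35 ± 0.27 (adjusted p = 2.16e-09). PLK1 went from 6.79, 7.60 and 7.90 to 13.33 and 12.64, 47.0-fold higher (adjusted p = 3.60e-08). For the dimmer genes the difference is a lower bound, with each PA6 array at the higher of its detection level and its own signal. BIRC5, which encodes survivin, read 6.26, 6.27 and 6.94 in PA6 and 13.76 and 13.67 in co-cultures, at least 121-fold higher. CCNB1 went from 6.37, 5.67 and 6.99 to 13.45 and 13.33, at least 95.8-fold, and TOP2A from 6.14, 6.42 and 7.03 to 13.43 and 13.29, at least 92.7-fold. For each of these 3 genes only 1 of the 3 PA6 arrays detected the probe. KIF2C, a kinesin of the spindle, was undetected in PA6 without factor and at least 43.8-fold higher in co-cultures, at 12.23 and 12.02 against 5.69, 5.47 and 5.50. MKI67 was at least 34.1-fold, AURKA at least 45.2-fold and AURKB at least 42.1-fold higher, the last 2 being the Aurora kinases. Bounds give these genes no order among themselves, and they rest on the brightest retained probe of each. Further probes of MKI67 did not pass the filter, each being detected on 1 array. Dimmer retained probes of TOP2A, undetected on every PA6 array, gave differences of 4.74 and 1.13 on the log2 scale. BUB1 was the gene of mitosis that was not called, undetected on every PA6 array and with overlapping groups.

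Of the 15 genes of replication 14 were called higher without factor, against 22.4% of all genes, with a median of 3.04. MCM5, a helicase subunit, was higher by 6.28 ± 0.32, from 7.58, 8.13 and 6.97 to 14.08 and 13.61. CDC6, a loader of the helicase, was detected on 1 of 3 PA6 arrays without factor and was at least 28.1-fold higher in co-cultures. The other leads lay lower. In PA6 RRM2 read 6.90, 7.82 and 6.98 without factor, 8.16, 7.60 and 7.83 with FGF2 and 6.52, 7.11 and 8.27 with BMP4, and was higher in co-cultures by 4.50 ± 0.42. CCNE1 in PA6 read 7.22, 6.12 and 7.27 without factor, 6.94, 7.67 and 7.27 with FGF2 and 6.97, 6.14 and 7.26 with BMP4, a difference of 3.55 ± 0.43, with the probe detected on 2 of 3 arrays without factor, which makes it at least 9.96-fold. MCM2 in PA6 read 8.94, 8.48 and 9.10 without factor, 8.59, 8.34 and 8.58 with FGF2 and 8.66, 8.45 and 8.88 with BMP4, a difference of 3.19 ± 0.23. None of these 3 overlapped the co-cultures.
PCNA differed by 1.99 ± 0.34. CDK2 in PA6 read 11.28, 11.70 and 11.63 without factor, 11.39, 11.53 and 11.62 with FGF2 and 11.22, 11.64 and 11.44 with BMP4, a difference of 1.18 ± 0.19. E2F1 in PA6 read 11.47, 11.39 and 11.19 without factor, 11.80, 11.60 and 11.66 with FGF2 and 11.37, 11.66 and 11.62 with BMP4, and its difference of 0.38 ± 0.16 (adjusted p = 0.0493) was under the fold limit. MCM6 rested on 4 probes, of which 3 were higher in co-cultures, by 2.68, 2.71 and 2.55, and 1 lower, at -3.92. What that probe measures was not tested.

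Among the D cyclins and CDK4, CCND1 was higher by 1.40 ± 0.24 (adjusted p = 0.000183) and CDK4 by 1.10 ± 0.14 (adjusted p = 1.40e-05). With FGF2 neither was called, CCND1 standing at -0.11 ± 0.22 between the cultures. CCND2 and CCND3 gave 0.18 ± 0.20 and -0.10 ± 0.19 without factor and overlapped. The inhibitors were the members called lower. CDKN2A fell by 2.06 (-2.06 ± 0.30, adjusted p = 4.04e-05), and its 3 probes gave -2.06, -1.56 and -0.70. CDKN1B fell by 1.61 (-1.61 ± 0.40, adjusted p = 0.00299), CDKN2B gave -0.51 ± 0.27 (adjusted p = 0.119) and CDKN1A 0.25 ± 0.29. With FGF2 CDKN2B was called too, at -1.15 ± 0.24 (adjusted p = 0.000800), and with BMP4 CDKN1B alone.

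**Figure D4:**
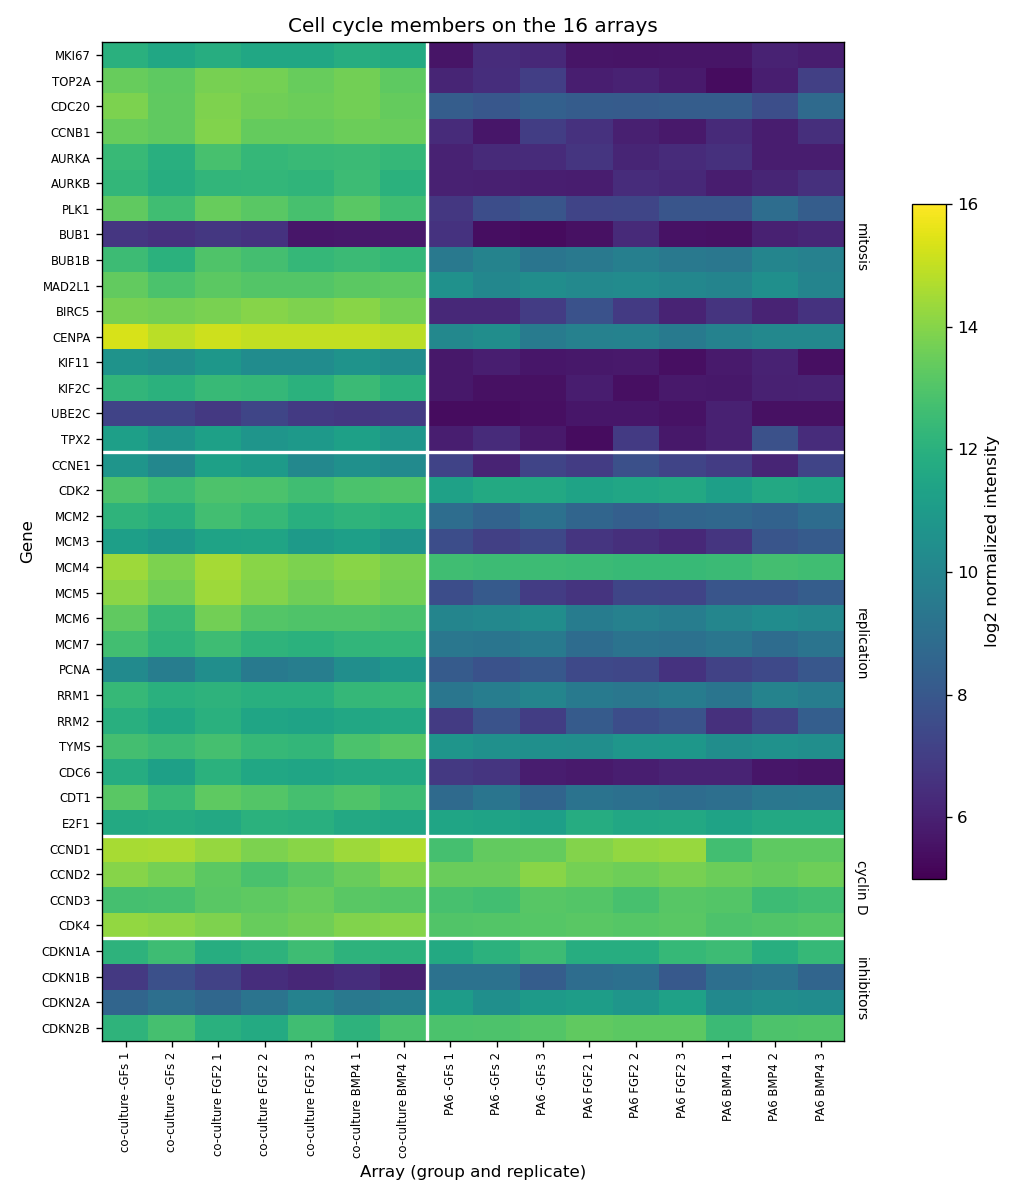
Heat map of log2 normalized intensity (colour) of the 39 members (rows, by role) on the 16 arrays (columns, 7 co-cultures left of the white line and 9 PA6 right of it). Every row of mitosis and replication is brighter in all 7 co-cultures than in any of the 9 PA6 arrays, except BUB1 and E2F1, whose values overlap.

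**Figure D5:**
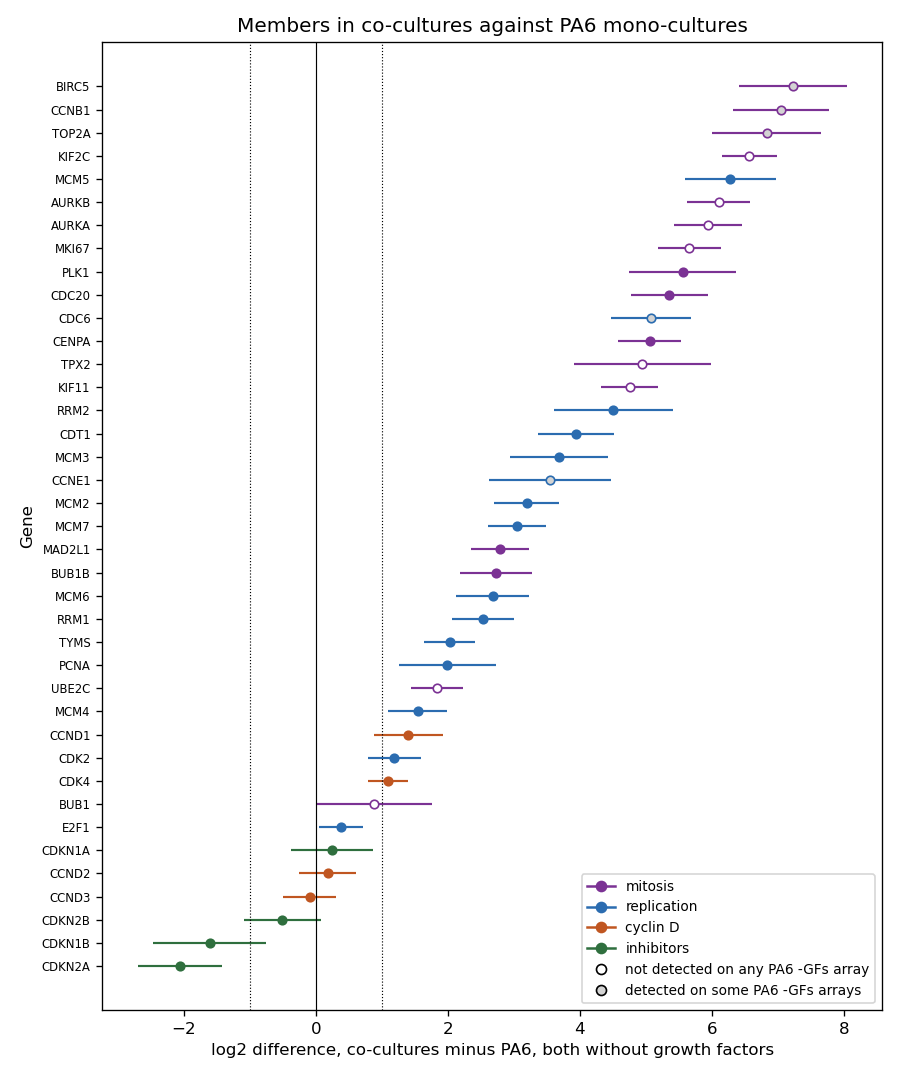
log2 difference between co-cultures and PA6, both without growth factor (x axis), for the 39 members (y axis), with 95% intervals; colours are roles, open circles members undetected on every PA6 array without factor, grey circles those detected on some of them, and dotted lines mark a difference of 1. CDKN2A lies lowest at -2.06; open and grey circles rest on PA6 signals at or near background, so their order is not measured.

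A wider list of 111 other cell cycle genes, of which 96 were tested, was described by the same counts. With FGF2 in co-cultures 2 of the 96 were called higher, against 5.06% of all genes. They were MYBL2, a transcription factor of mitosis genes, by 1.91 ± 0.34 (adjusted p = 0.0245), and UNG, a uracil glycosylase of DNA repair, by 1.07 ± 0.27 (adjusted p = 0.0700). With FGF2 in co-cultures 0 of 96 were called lower, against 2.36% of all genes, and with BMP4 0 of 96 were called, against 3.76%. In PA6 0 of 96 were called with FGF2, against 0.027% of all genes, and 0 of 96 with BMP4, against 0%. An unadjusted p below 0.05 was met by 12 with FGF2 and 1 with BMP4 in co-cultures, against 22.7% and 14.9% of all genes, and by 12 and 9 in PA6, against 10.4% and 8.97%. The medians were 0.04 with FGF2 and 0.04 with BMP4 in co-cultures. Between the cultures without factor 76 of 96 were called higher and 4 lower, against 22.4% and 21.8% of all genes. Of the 96, 26 were undetected on every PA6 array without factor and 35 passed the filter only through the co-cultures, so this too is a description.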

How the data were processed

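RNA of 16 cultures was hybridized to Illumina mouse bead arrays. The authors deposited, from GenomeStudio 2011.01, a non-normalized intensity and a detection p-value for each probe and array. From these, limma 3.58.1 in R 4.3.3 corrected the background (normexp, from the detection p-values, offset 16), quantile normalized and took log2 values. Probes were kept where all arrays of any 1 group had detection p-values below 0.05, and of several probes for a gene that with the highest mean was used, as in the study's methods. Comparisons within a culture were fitted to its 7 or 9 arrays, those between cultures and interactions to all 16. A gene was called at a Benjamini-Hochberg adjusted p under 0.1 and a log2 change over 1. Precision is limited by the 2 or 3 arrays of each group. The steps were tested on simulated data.

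The members, roles and lists were chosen with earlier results of these data known. Values in single arrays were given for the leading genes of each role, the 5 largest rises and falls between cultures, and CDKN2A, whose probes disagreed. TOP2A and CCNB1 lack the PA6 arrays with a factor, and BIRC5, MCM5 and KIF2C lack all arrays with a factor. MCM6, whose probes also disagreed, was given by its changes alone. BUB1, BUB1B, MAD2L1, MCM3, CDC6, AURKA, AURKB, CENPA, CDC20, MYBL2, UNG, PECAM1, TEK and EMCN were named after their values were seen. Alternatives were other scaling, background, filters, probes, thresholds, variance priors, samples, blocks and left-out arrays. Promoters came from RefSeq, GRCm38.p6.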

Additional observations from a re-analysis of the deposited data

Results flagged for a closer look

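The effect of FGF2 on CCND1 differed between the kinds of culture by -1.51 on the log2 scale, by an interaction test in limma (adjusted p = 0.0141): the change was -0.53 in co-cultures and 0.98 in PA6, and neither change passed the limits on its own.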

How the results depend on the processing

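The number of members called was recomputed under every alternative. The members' median change, which has no test, turned sign in 3 of 16 alternatives each with FGF2 and with BMP4 in co-cultures (ranges -0.17 to 0.23 and -0.13 to 0.21) and in 5 and 3 of 18 in PA6 (-0.14 to 0.02 and -0.10 to 0.03). For the growth factor comparisons it rose from 0 to 1 with no minimum fold (FGF2 in co-cultures, CCND2), with the column run as a block (BMP4 against -GFs and against FGF2 in co-cultures, PCNA), and for BMP4 against FGF2 in PA6 with no background correction, all 16 arrays in the fit, the replicate block, the column run block or a trended, robust prior (1 each, CCND1). Between samples with the same replicate number, deviations from group means correlated at r from -0.20 to 0.28 over 6 pairs of co-cultures. Over 9 pairs of PA6 r was 0.07 to 0.20, and 18 of 18 comparisons were highest with the own number. In PA6 the replicate numbers equal the column runs. Over 5 pairs of co-cultures from the same column run r was 0.10 to 0.28. The main fits use no block. The replicate block also raised the difference of the BMP4 effect from 0 to 1 (CDKN2A), as did other samples in the fit, the column run block, the trended prior and leaving out co-culture FGF2 replicate 1 or 3 (1 each), and it changed no other count of members called. The difference of the FGF2 effect went from 1 to 2 with other samples in the fit (MCM3), no minimum fold (CDK4), and without co-culture -GFs replicate 1 (MCM6) or PA6 BMP4 replicate 1 (MCM3), CCND1 being called each time. Between cultures, requiring detection on all 16 arrays left 21 members and 9361 genes. Of the 21, 16, 15 and 14 were called without factor, with FGF2 and with BMP4. In the main fits 44.2%, 46.4% and 42.5% of all 14829 genes were called in either direction. The share of all genes under this filter is not given here. Leaving out each array gave 0 to 0 calls in the 6 growth factor comparisons, 32 to 34, 31 to 32 and 31 to 32 between cultures, 1 to 2 for the FGF2 difference and 0 to 1 for the BMP4 difference. Between cultures without factor, CDK2 (0.93) and CDK4 (0.83) under median scaling, CDK2 without co-culture -GFs replicate 1 (0.98) and CDKN1B without background correction (-0.998) fell short of the fold limit. Median scaling moved the median of all genes to 0.29 for BMP4 against FGF2 in co-cultures, where the members' median was 0.27, to -0.14 for BMP4 in PA6, to -0.08, -0.17 and 0.13 between cultures without factor, with FGF2 and with BMP4, and to 0.24 for the BMP4 difference. It moved the share of calls over all genes that were higher from 52.3% to 63.8% for BMP4 against FGF2 in co-cultures, from 34.8% to 45.5% in PA6, from 62.3% to 75.2% for the FGF2 difference and from 61.9% to 77.4% for the BMP4 difference. Over the alternatives, calls over all genes ran from 325 to 1674 with FGF2 (1101 as reported), 32 to 873 with BMP4 (557) and 8 to 579 for BMP4 against FGF2 (214) in co-cultures, and from 0 to 32 (4), 0 to 6 (0) and 0 to 72 (46) in PA6. Values near the detection level, as for BUB1, UBE2C and most mitosis genes in PA6, limit the folds.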
